A study of Mus musculus with 48 samples.

Results

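Axon guidance ligands and receptors are the cell-surface and secreted proteins by which a growing axon is steered. The group examined here holds the semaphorins with their plexin and neuropilin receptors, the ephrins with the Eph receptors, the netrins with Dcc and the Unc5 receptors, and the Slits with the Robo receptors. Its members were all protein-coding genes whose mouse symbol names one of these families, which gave 69 genes of the 34183 rows in each expression table. Of these, 35 encode ligands and 34 encode receptors. By family there were 7 class 3 semaphorins, 13 other semaphorins, 11 plexins and neuropilins, 9 EphA and 5 EphB receptors, 8 ephrins, 4 netrins, 5 genes of the Unc5 and Dcc group, 4 Robo receptors and 3 Slits.

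Class 3 semaphorins are secreted and act through complexes of a neuropilin, which binds the ligand, and an A-type plexin, which signals, while most other semaphorins are membrane-bound and bind plexins directly. Plexins act inside the cell on the cytoskeleton of the growth cone. Ephrins and Eph receptors signal between touching cells, netrins attract or repel depending on whether Dcc or Unc5 receptors are present, and Slits repel through Robo receptors. In the dorsal root ganglion (DRG), which holds the cell bodies of sensory neurons, these proteins are best known for guiding sensory axons in the embryo.

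The 48 libraries were stranded poly(A) RNA-seq libraries of neuron-enriched primary cultures of wildtype adult mouse DRG, 4 in each of 12 groups. Cells were transfected on isolation and taken 42 h later, except for an untransfected group taken at time 0. In 8 groups the cells received a pool of small interfering RNAs (siRNA), either the control pool siCONTROL or a pool against Atf3, Atf4, Jun, Stat3, Klf6, Rest or Alyref, and in the other 3 they received messenger RNA (mRNA) for GFP as the control, for Atf4, or for Atf4 together with Cebpg. Atf3, Atf4, Jun, Stat3, Klf6, Rest and Cebpg are transcription factors and Alyref is an mRNA export factor, and the study's design describes the siRNA targets as responsive to axon injury. All groups share the dissociation, which severs the axons, and all but time 0 share 42 h in culture and a transfection. No label ties a replicate to an animal or a culture of its own, and the p-values therefore cover only the spread between these samples, which may be technical.

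Library totals ran from 1539198 to 6621566 expected counts with a median of 4882199, and the shallowest was siKlf6 replicate 1. The mean level of each siRNA target in its own knockdown was 17.0 to 39.4% of its siCONTROL mean, highest for Rest, and every such library lay below all siCONTROL libraries. All 10 neuronal markers were detected in every group, with a sum of 12501 to 15571 CPM (counts as a share of the library total, on the usual scale) in siCONTROL. Levels below are CPM of the deposited values. These were taken from their pattern to be scaled by transcript length, and on that reading levels are set beside each other between genes. Fold changes and adjusted p come from edgeR's quasi-likelihood F test, fitted on the whole table and adjusted by the Benjamini-Hochberg method over all genes tested, and "rose" and "fell" are used of adjusted p under 0.05.

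In siCONTROL at 42 h, 31 of the 69 genes had a mean level of at least 10 CPM and 10 were under 1 CPM. Their levels summed to 1370 CPM, 776 from ligands and 594 from receptors. Sema6a, a transmembrane semaphorin that binds Plxna2 and Plxna4, was the highest at 149 ± 15.3 CPM (SD, n = 4), and Plxna4, a receptor for both class 3 and class 6 semaphorins, was next at 147 ± 9.24 CPM (SD, n = 4). The libraries of this pair overlapped, so their order is not resolved. Sema4f, a transmembrane semaphorin, followed at 118 ± 15.7 CPM (SD, n = 4), with every library above those of the next gene. The ephrin Efna1 (67.7 CPM), Slit1 (63.4 CPM), Robo2 (62.3 CPM), Plxnd1 (60.1 CPM) and Plxna2 (47.3 CPM) came after, each overlapping its neighbour in that order.

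The highest member of each other family was lower. Sema3c led the class 3 semaphorins at 35.9 CPM, and Ephb6, an Eph receptor without kinase activity, led the EphB receptors at 16.2 CPM. The highest EphA receptor was Epha5 at 12.2 CPM, the highest Unc5 receptor was Unc5a at 8.57 CPM and the highest netrin was Ntn1 at 4.44 CPM. Dcc, the attractive netrin receptor, was at 0.169 CPM, and Sema3a, the best-known repellent of sensory axons, at 0.0879 CPM. In these scaled values 1 read in a long transcript adds less than 1 count.

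**Figure D1:**
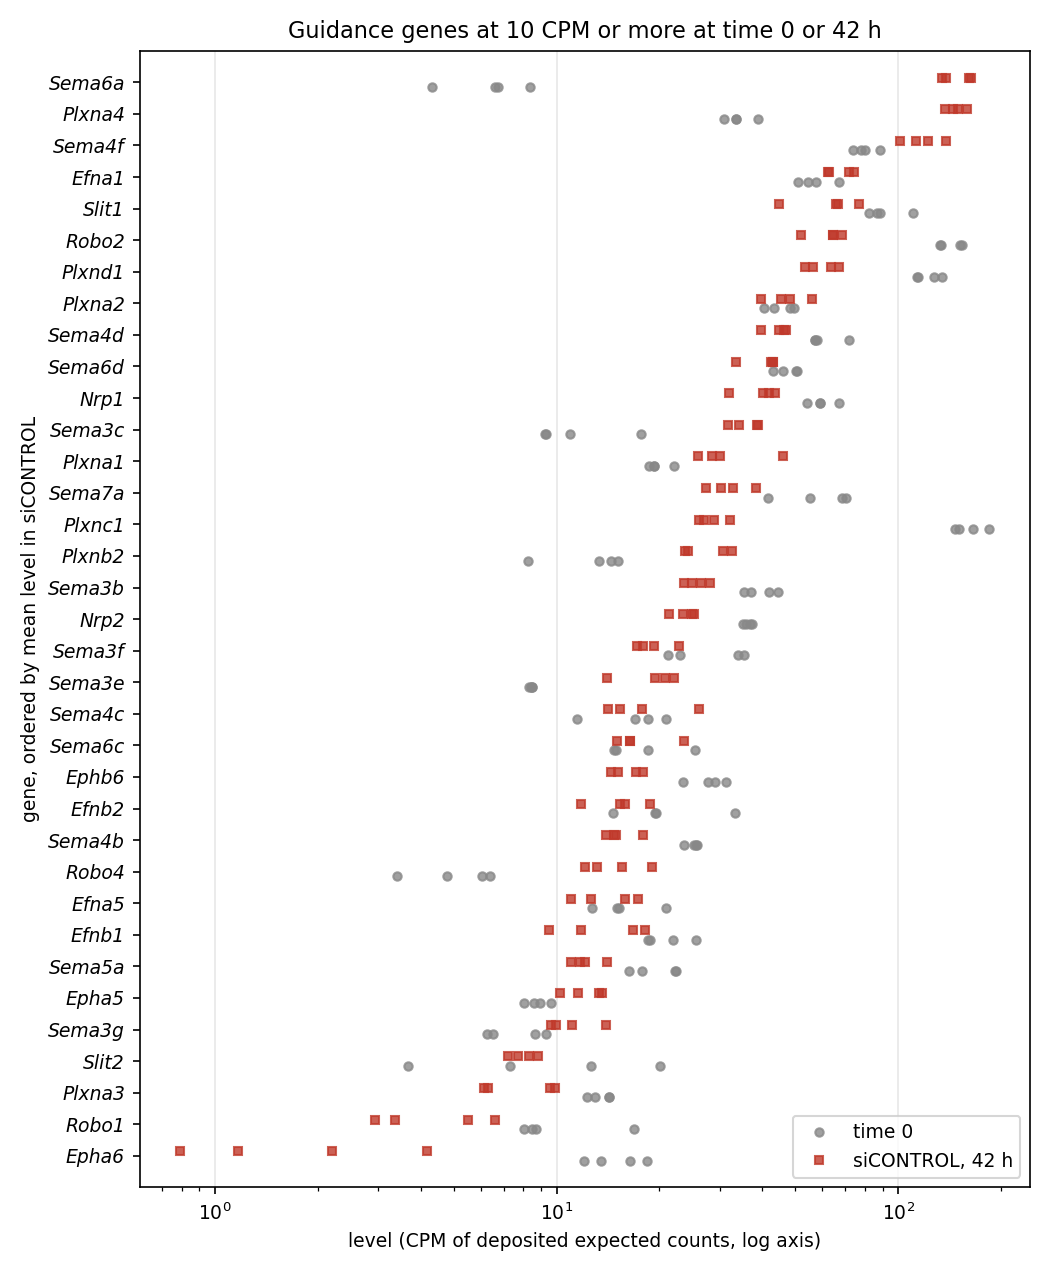
Level of each guidance gene with a mean of at least 10 CPM at time 0 or in siCONTROL, in CPM on a log axis, with 1 point per library (grey circles, time 0; red squares, siCONTROL at 42 h; 4 libraries each). Genes are ordered by their siCONTROL mean, which puts Sema6a and Plxna4 on top, far to the right of their time 0 libraries, while Plxnc1, Robo2 and Epha6 have their time 0 libraries to the right.

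The first comparison, of siCONTROL at 42 h with time 0, asks what the 42 h in culture with a control transfection did to these genes. The guidance genes were reordered. Sema6a rose 21.6-fold and Plxna4 4.03-fold, while Plxnc1, the receptor of Sema7a, fell 6.04-fold and Robo2, the most abundant Slit receptor here, fell 2.43-fold. Of the 59 members that could be tested, 13 rose and 24 fell, which is 62.7% called. Among all 13448 genes tested 57.9% were called, 28.7% up and 29.2% down, so the share of members called was near that of all genes. The median log2 fold change was -0.38 over the tested members and 0.01 over all genes. The summed level of the receptors was 771 CPM at time 0 and 594 CPM at 42 h, and that of the ligands 690 and 776 CPM.

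Cell type markers moved as well. The 8 satellite glia markers summed to 4236 to 5197 CPM per library at time 0 and 743 to 908 CPM in siCONTROL, with 5 of the 8 lower and 2 higher, Sox10 (1.89-fold) and Glul (1.37-fold). The neuronal markers summed to 16557 to 18699 CPM at time 0, and 6 of 10 fell. The endothelial and mural markers summed to 225 to 287 CPM at time 0 and 334 to 396 CPM in siCONTROL, with 6 of 10 higher and 2 lower. Of the other markers, 6 of 7 for Schwann cells and 4 of 5 for red cells fell. Of both the 7 for fibroblasts and the 6 for macrophages, 2 rose and 2 fell. The fibroblast sum was nonetheless lower in siCONTROL, at 99.0 to 183 CPM against 229 to 437 CPM at time 0. The macrophage sum was higher, at 26.4 to 45.2 CPM against 9.37 to 14.9 CPM. In bulk libraries fewer cells of a type and less RNA per cell cannot be told apart, and the part of these shifts in the guidance gene results was not tested.

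Among the class 3 semaphorins, 2 of the 6 tested rose and 3 fell. Sema3c was at 9.24 to 17.7 CPM in the 4 time 0 libraries and at 31.8, 34.3, 38.7 and 38.8 CPM in the siCONTROL libraries, without overlap. It rose 2.83-fold (log2 1.503 ± 0.20 SE, adjusted p = 5.95e-05). Sema3e, which binds Plxnd1 without a neuropilin, was at 8.33 to 8.48 CPM at time 0 and 14.02 to 22.0 CPM at 42 h, a 2.10-fold rise. Sema3d, at 1.39 to 2.47 CPM after 42 h against 3.25 to 6.01 CPM, fell 2.54-fold. It entered the test through time 0, where it was high.

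Of the other semaphorins, 2 of 13 rose and 8 fell. Sema6a had 6.76, 8.34, 4.33 and 6.61 CPM in the time 0 libraries and 134, 163, 138 and 161 CPM in siCONTROL. Every 42 h library was thus far above every time 0 library, and the rise was the largest among the tested members (log2 4.43 ± 0.15 SE, adjusted p = 2.95e-09). Sema4f also rose, from 73.7 to 88.4 CPM to 101 to 138 CPM, by 1.38-fold. Most of the others went down, and the largest falls were of genes at low levels. Sema5b fell 4.13-fold from 6.28 ± 1.34 to 1.58 ± 0.576 CPM, Sema4g fell 3.93-fold from 3.34 ± 0.487 to 0.868 ± 0.246 CPM and Sema4a fell 3.08-fold from 8.43 ± 4.79 to 2.94 ± 2.11 CPM (SD, n = 4 each). Sema5b, Sema4g and Sema4a entered the test through time 0, where they were high. In the knockdown fit, which holds the same siCONTROL libraries, Sema4g was under the filter on low counts. The Sema4a libraries overlapped between the groups, and its call was lost on leaving out time 0 replicate 1 or 2 or siCONTROL replicate 2 or 4, with an adjusted p of 0.00889 to 0.0928 over its alternatives.

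Their receptors split in the same comparison, with 4 of the 11 plexins and neuropilins higher and 5 lower. Plxna4 was at 33.5, 38.9, 31.0 and 33.4 CPM at time 0 and at 137, 144, 150 and 159 CPM in siCONTROL, with no overlap (log2 2.01 ± 0.09 SE, adjusted p = 1.38e-08). Plxnc1 went the other way, from 166, 150, 185 and 147 CPM, the highest mean of any member at time 0 though its libraries overlapped those of Robo2, to 26.2, 27.0, 32.3 and 28.9 CPM (log2 -2.59 ± 0.10 SE, adjusted p = 8.69e-09). Plxnb1, a receptor of Sema4d, rose 2.24-fold from 2.84 to 4.44 CPM to 6.13 to 10.3 CPM. Both neuropilins fell, Nrp1 by 1.62-fold and Nrp2 by 1.64-fold, and Plxnd1 fell 2.19-fold.

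In the ephrin system, 2 of 6 tested EphA receptors fell and none rose, while 2 of 4 EphB receptors rose and 1 fell. Epha6 was at 13.5, 16.4, 12.1 and 18.4 CPM at time 0 and at 1.17, 4.19, 0.791 and 2.21 CPM at 42 h. All 4 of its 42 h libraries lay below all at time 0, a 7.10-fold fall (log2 -2.83 ± 0.38 SE, adjusted p = 7.69e-05). Epha6 entered the test through time 0, where it was high. Epha4 fell 4.42-fold, from 2.87 to 4.55 CPM to 0.398 to 1.23 CPM, and like Sema4g it entered the test through time 0 and was under the filter in the knockdown fit. Ephb4, known from venous endothelium, rose 2.43-fold from 1.70 to 3.08 CPM to 5.30 to 7.22 CPM. Of the 6 ephrins tested 1 rose and 1 fell. The one that rose was Efna2, a membrane-anchored ligand of EphA receptors, at 2.34, 1.52, 2.73 and 2.16 CPM at time 0 and 8.99, 6.09, 8.01 and 7.79 CPM at 42 h (3.34-fold, adjusted p = 0.000236). Both Ephb4 and Efna2 entered the test through siCONTROL, where they were high. Efna1, the most abundant ephrin, was at 51.1 to 67.2 CPM and 62.4 to 74.4 CPM and was not called.

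Ntn1 rose 3.49-fold (adjusted p = 0.000854) from 0.972 to 1.47 CPM to 2.87 to 5.97 CPM. It was the single netrin of 4 that rose, and 1 other fell. Ntn1 entered the test through siCONTROL, where it was high. None of the 4 tested Unc5 receptors was called, with log2 fold changes between -0.66 and 0.18. Robo2 fell in every library, from 132, 151, 133 and 153 CPM to 51.8, 64.4, 68.6 and 64.5 CPM (log2 -1.28 ± 0.09 SE, adjusted p = 6.83e-07), and Robo1 fell 2.38-fold. Robo4, a Robo receptor known from endothelium, went up instead, from 3.41 to 6.39 CPM to 12.1 to 19.0 CPM (2.75-fold, adjusted p = 0.000219). The ligand Slit1 fell 1.56-fold, from 82.1 to 110 CPM to 44.9 to 76.6 CPM.

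With libraries scaled by their totals alone, a choice added after seeing the data, the median log2 fold change of all genes moved from 0.01 to 0.11. Then 16 members rose and 23 fell, instead of 13 and 24. All 13448 genes likewise went from 3855 up and 3926 down to 4546 up and 3485 down, 59.7% called.

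**Figure D2:**
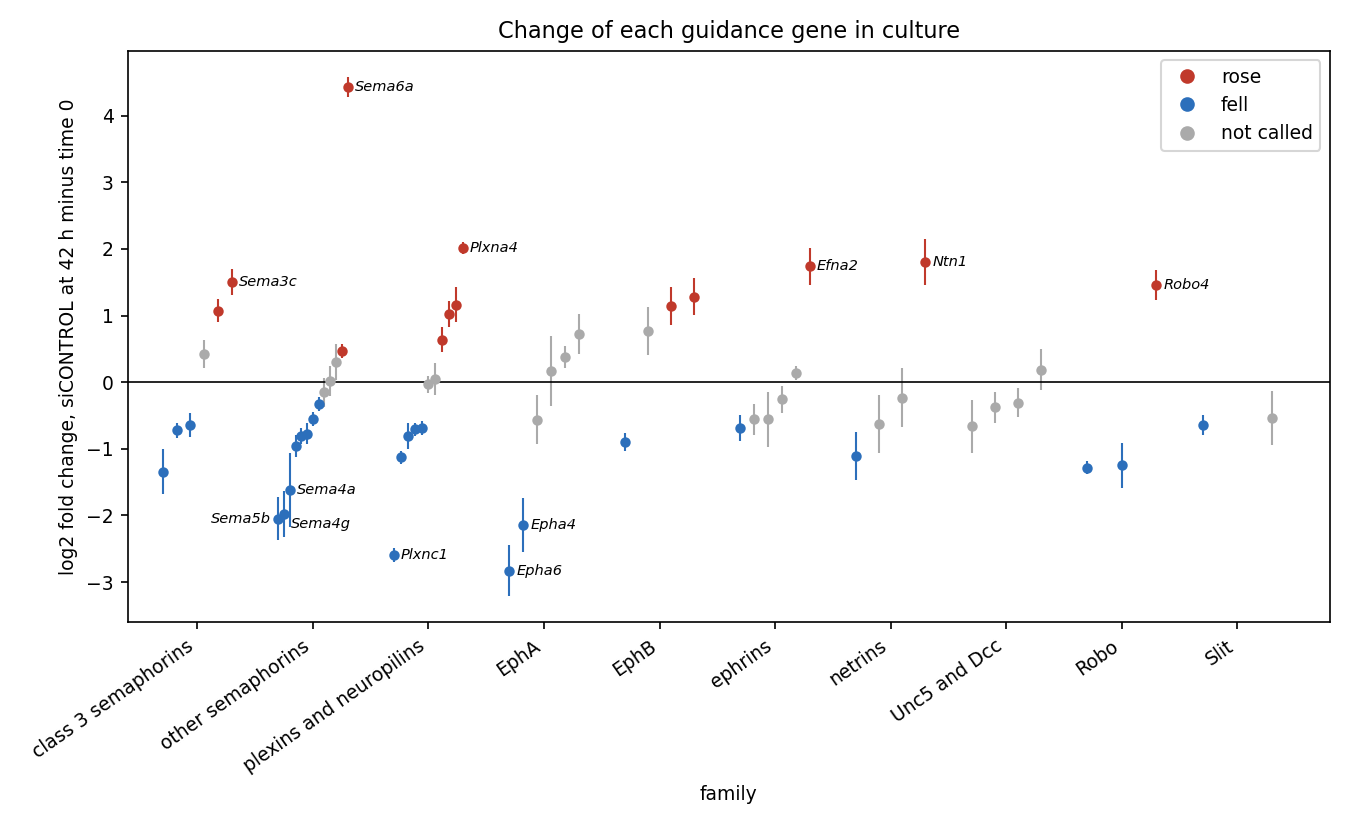
log2 fold change of each of the 59 tested guidance genes, siCONTROL at 42 h minus time 0, by family (n = 4 against 4 libraries). Points are edgeR estimates with standard errors derived from its F statistic. They are red where the gene rose, blue where it fell and grey where it was not called, and genes beyond 1.4 on either side of 0 are named. Sema6a stands apart at 4.43, and Epha6, Plxnc1 and Epha4 are the lowest.

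The knockdown comparisons ask which guidance genes at 42 h depended on each factor, and each set 4 knockdown libraries against the same 4 siCONTROL libraries. The receptors Plxna2 and Plxna4 were the members called most often. Both were lower with siAtf3 and with siJun and higher with siAtf4, and Plxna4 was also lower with siStat3 and siAlyref. In all, 14 of the 59 tested members were called in at least 1 of the 7 knockdowns, 23.7%, which is also the share of all genes (23.7%), and 9 in at least 2, 15.3%, beside 8.45% of all genes. Since the knockdowns share their control libraries, a high or low control would move all of them together.

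With siAtf3, 1 of 59 tested members rose and 5 fell, which is 10.2%, beside 11.5% of all 14876 genes (4% up, 7.49% down). With siJun 3 rose and 7 fell, 16.9%, beside 7.78% of all genes (3.19% up, 4.59% down). The siAtf4 libraries had 4 members higher and none lower, 6.78%, beside 6.91% of all genes (2.74% up, 4.17% down). With siStat3 1 rose and 3 fell, 6.78%, beside 3.03% (1.19% up, 1.84% down), and with siAlyref 3 fell, 5.08%, beside 4.26% (0.881% up, 3.37% down). Among the knockdowns, only for siJun and siStat3 was the members' share over 1.5 times that of all genes, and no test of that difference was made.

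No member was called with siKlf6 or siRest, where edgeR called 1.85% (0.706% up, 1.14% down) and 0.202% (0.0134% up, 0.188% down) of all genes. At an unadjusted p under 0.05 there were 4 of 59 members with siKlf6, beside 1783 of all 14876 genes, and 1 with siRest, beside 908. The members' share was below that of all genes in both. DESeq2 called none in either, with 4 and 1 at an unadjusted p under 0.05. The 4 with siKlf6 had log2 fold changes of 0.24 (Nrp1), 0.28 (Plxna2), 0.86 (Sema3d) and 0.39 (Plxnc1), and the smallest adjusted p was 0.222. These genes are named after their values were seen.

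**Figure D3:**
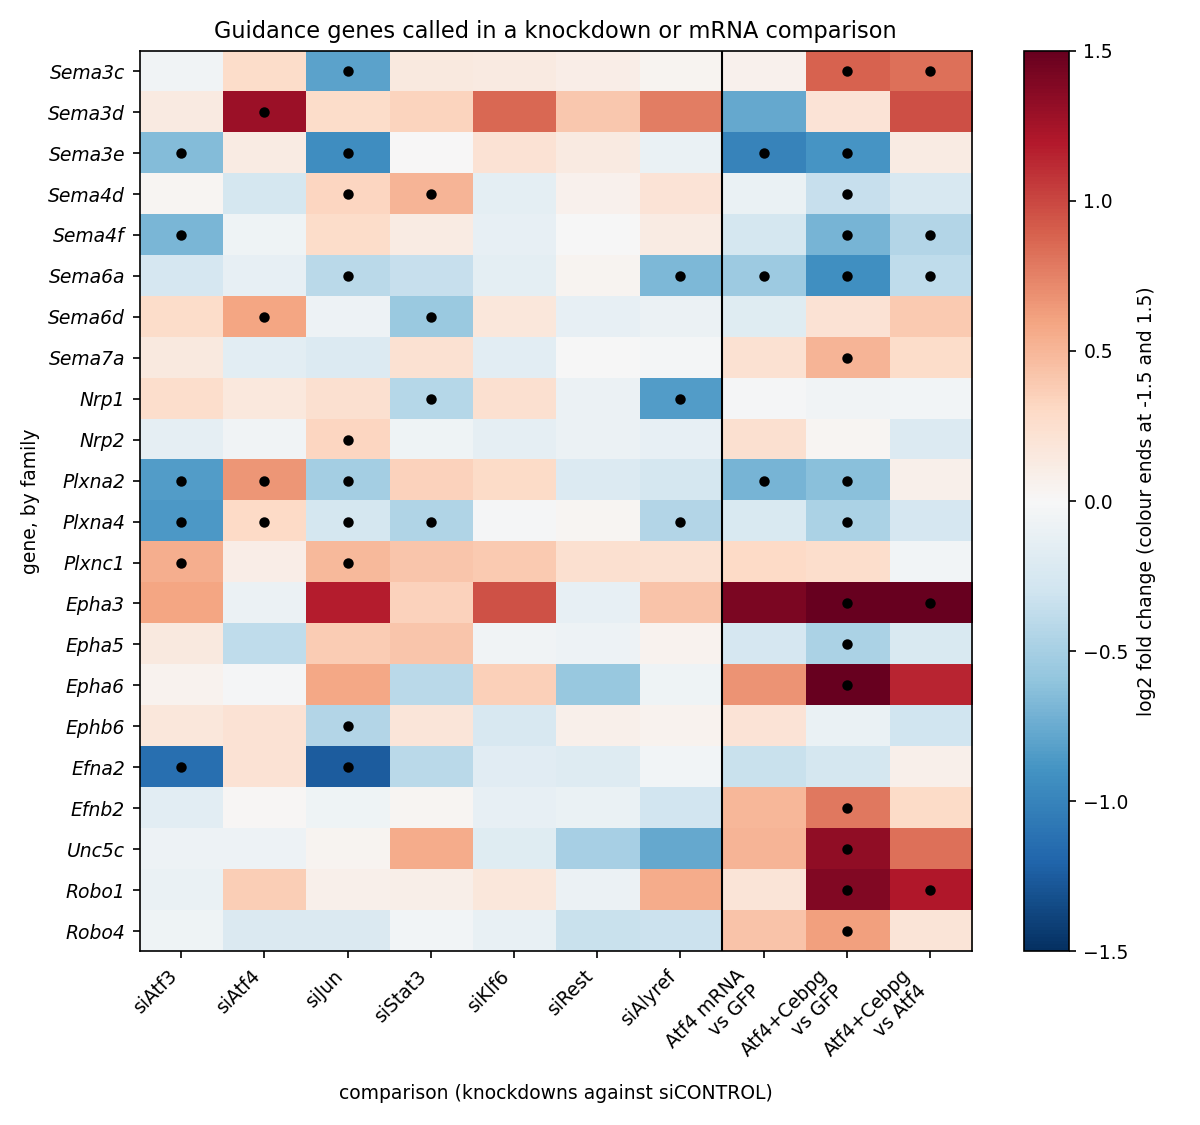
log2 fold change of the 22 guidance genes called in at least 1 knockdown or mRNA comparison, by gene (rows, ordered by family) and comparison (columns), on a colour scale that ends at -1.5 and 1.5, with a black dot where the gene was called (4 against 4 libraries each). Plxna2 and Plxna4 carry dots in the most knockdown columns, siKlf6 and siRest carry none, and Epha3 runs past the end of the scale with Atf4 and Cebpg mRNA.

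Plxna4 was at 137, 144, 150 and 159 CPM in siCONTROL. With siAtf3 it was at 82.6, 94.0, 85.2 and 81.7 CPM, all below every control library (1.81-fold lower, log2 -0.86 ± 0.07 SE, adjusted p = 3.2e-10). With siStat3 it was at 97.8, 117, 113 and 108 CPM (1.37-fold lower, adjusted p = 8.24e-05), with siAlyref at 103, 112, 115 and 109 CPM (1.36-fold lower, adjusted p = 6.09e-05) and with siJun at 129, 126, 123 and 123 CPM (1.20-fold lower, adjusted p = 0.00874). The siAtf4 libraries were the exception, at 180, 186, 185 and 185 CPM, all above the controls (1.23-fold higher, adjusted p = 0.00339). Set against each other in the same fit, siAtf4 exceeded siAtf3 by 2.23-fold (adjusted p = 1.02e-13), siStat3 by 1.68-fold, siAlyref by 1.67-fold and siJun by 1.48-fold, and each of these differences passed the test.

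Plxna2, a receptor of class 3 and class 6 semaphorins, was at 45.4, 55.8, 39.6 and 48.4 CPM in siCONTROL. It fell with siAtf3, to 25.6, 33.8, 23.8 and 27.8 CPM (1.79-fold, log2 -0.84 ± 0.13 SE, adjusted p = 3.36e-05), and with siJun, to 33.3, 40.04, 28.5 and 35.6 CPM (1.42-fold, adjusted p = 0.0118), where 1 library overlapped the controls. It rose with siAtf4, to 69.6, 84.1, 70.8 and 79.9 CPM, above all controls (1.58-fold, log2 0.66 ± 0.12 SE, adjusted p = 0.000677). Between the knockdowns, Plxna2 was 2.84-fold higher with siAtf4 than with siAtf3 (adjusted p = 2.99e-10) and 2.24-fold higher than with siJun (adjusted p = 5.04e-08). Its fall with siJun was lost without siCONTROL replicate 2, without siJun replicate 3 and with these groups fitted alone, with an adjusted p of 2.69e-05 to 0.0803 over the alternatives.

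Plxnc1 was higher with siAtf3 and siJun, where Plxna2 and Plxna4 were lower. From 26.2, 27.0, 32.3 and 28.9 CPM in siCONTROL it rose to 38.5, 45.2, 49.1 and 43.6 CPM with siAtf3 (1.46-fold, adjusted p = 0.00965) and to 40.9, 38.2, 46.7 and 37.7 CPM with siJun (1.395-fold, adjusted p = 0.0332). None of these libraries overlapped the controls, though all were far below the 147 to 185 CPM of time 0. The siJun call was lost on leaving out siCONTROL replicate 1, 2 or 4 or siJun replicate 1 or 3 (adjusted p 0.0101 to 0.143 over the alternatives).

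Both neuropilins were called in at least 1 knockdown. Nrp1, at 31.9, 40.2, 41.9 and 43.5 CPM in siCONTROL, fell with siAlyref to 19.3, 25.8, 23.4 and 21.2 CPM, without overlap (1.79-fold, log2 -0.84 ± 0.10 SE, adjusted p = 1.5e-06). With siStat3 it was at 26.4, 28.8, 34.5 and 29.1 CPM, partly overlapping the controls (1.35-fold lower, adjusted p = 0.00975), a call lost when only these groups were fitted (adjusted p = 0.131, the range over the alternatives being 0.00185 to 0.131). Nrp2 rose with siJun from 23.4, 25.0, 21.4 and 25.2 CPM to 30.4, 30.5, 30.4 and 30.2 CPM (1.25-fold, adjusted p = 0.00756). That call was lost without siCONTROL replicate 3 and with these groups fitted alone (adjusted p 0.00369 to 0.0847 over the alternatives).

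Of the class 3 ligands, Sema3e was at 19.4, 20.7, 14.02 and 22.0 CPM in siCONTROL and at 9.56, 12.002, 9.41 and 9.92 CPM with siJun, all below the controls (1.91-fold, log2 -0.93 ± 0.20 SE, adjusted p = 0.00294). With siAtf3 it was at 12.1, 14.9, 9.88 and 14.1 CPM (1.56-fold lower, adjusted p = 0.0307). This second set overlapped the controls, and the call was lost in 7 of 14 alternatives, among them leaving out siCONTROL replicate 1, 2 or 4 or siAtf3 replicate 1 or 3 (adjusted p 8.87e-05 to 0.117). Sema3c fell with siJun, from 31.8, 34.3, 38.7 and 38.8 CPM to 22.3, 18.0, 21.8 and 22.1 CPM (1.74-fold, adjusted p = 0.00521). Sema3d rose with siAtf4, from 1.73, 1.77, 1.39 and 2.47 CPM to 4.90, 2.83, 5.48 and 5.18 CPM (2.43-fold, adjusted p = 0.0107), which was lost without siCONTROL replicate 3 (adjusted p = 0.0501, range over the alternatives 0.00513 to 0.0501).

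Of the membrane-bound semaphorins, Sema6a, Sema4f, Sema6d and Sema4d were called. Sema6a, at 134, 163, 138 and 161 CPM in siCONTROL, fell with siAlyref to 84.3, 105, 86.8 and 102 CPM (1.60-fold, log2 -0.68 ± 0.10 SE, adjusted p = 5.31e-05) and with siJun to 112, 127, 113 and 110 CPM (1.33-fold, adjusted p = 0.00841). Neither set overlapped the controls, and both stayed far above the 4.33 to 8.34 CPM of time 0. Sema4f fell with siAtf3 from 122, 138, 101 and 112 CPM to 76.8, 91.3, 64.3 and 76.8 CPM (1.61-fold, adjusted p = 0.000379). Sema6d, a transmembrane semaphorin that binds Plxna1, moved in opposite directions in a pair of knockdowns. From 42.5, 42.9, 33.6 and 43.1 CPM it rose with siAtf4 to 62.2, 67.3, 58.8 and 59.5 CPM (1.51-fold, adjusted p = 8.52e-05) and fell with siStat3 to 26.5, 30.2, 28.4 and 25.8 CPM (1.47-fold, adjusted p = 0.00106). The direct difference was 2.22-fold (adjusted p = 6.51e-10).

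Sema4d, the ligand of Plxnb1, rose with siStat3 from 39.8, 47.0, 46.4 and 44.9 CPM to 55.2, 75.1, 66.9 and 59.1 CPM (1.42-fold, adjusted p = 0.00107) and with siJun to 57.6, 56.6, 57.3 and 58.2 CPM (1.25-fold, adjusted p = 0.023). All 8 of these libraries lay above the controls, but the siJun call was lost on leaving out siCONTROL replicate 1 or 4 or siJun replicate 1 or 3 (adjusted p 0.00872 to 0.094 over the alternatives).

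In the ephrin system, Efna2 was at 8.99, 6.09, 8.01 and 7.79 CPM in siCONTROL. It fell with siAtf3 to 3.43, 3.57, 4.58 and 3.18 CPM (2.18-fold, log2 -1.13 ± 0.21 SE, adjusted p = 0.000385) and with siJun to 4.55, 3.36, 2.26 and 3.12 CPM (2.37-fold, log2 -1.25 ± 0.21 SE, adjusted p = 0.000212). Both sets lay wholly below the controls. The siJun library at 2.26 CPM lay within the 1.52 to 2.73 CPM of time 0, and the other libraries of both sets lay above that range. Ephb6 fell with siJun from 15.1, 14.4, 17.1 and 17.9 CPM to 11.97, 11.5, 11.5 and 13.5 CPM (1.35-fold, adjusted p = 0.0432). That call was the least stable of the knockdown calls, being lost in 11 of 14 alternatives, DESeq2 and 7 that leave out 1 library among them (siCONTROL replicate 1, 3 or 4 or any siJun replicate; adjusted p 0.0181 to 0.126). No netrin, Unc5, Robo or Slit gene was called in any knockdown by edgeR's test without a replicate block.

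**Figure D4:**
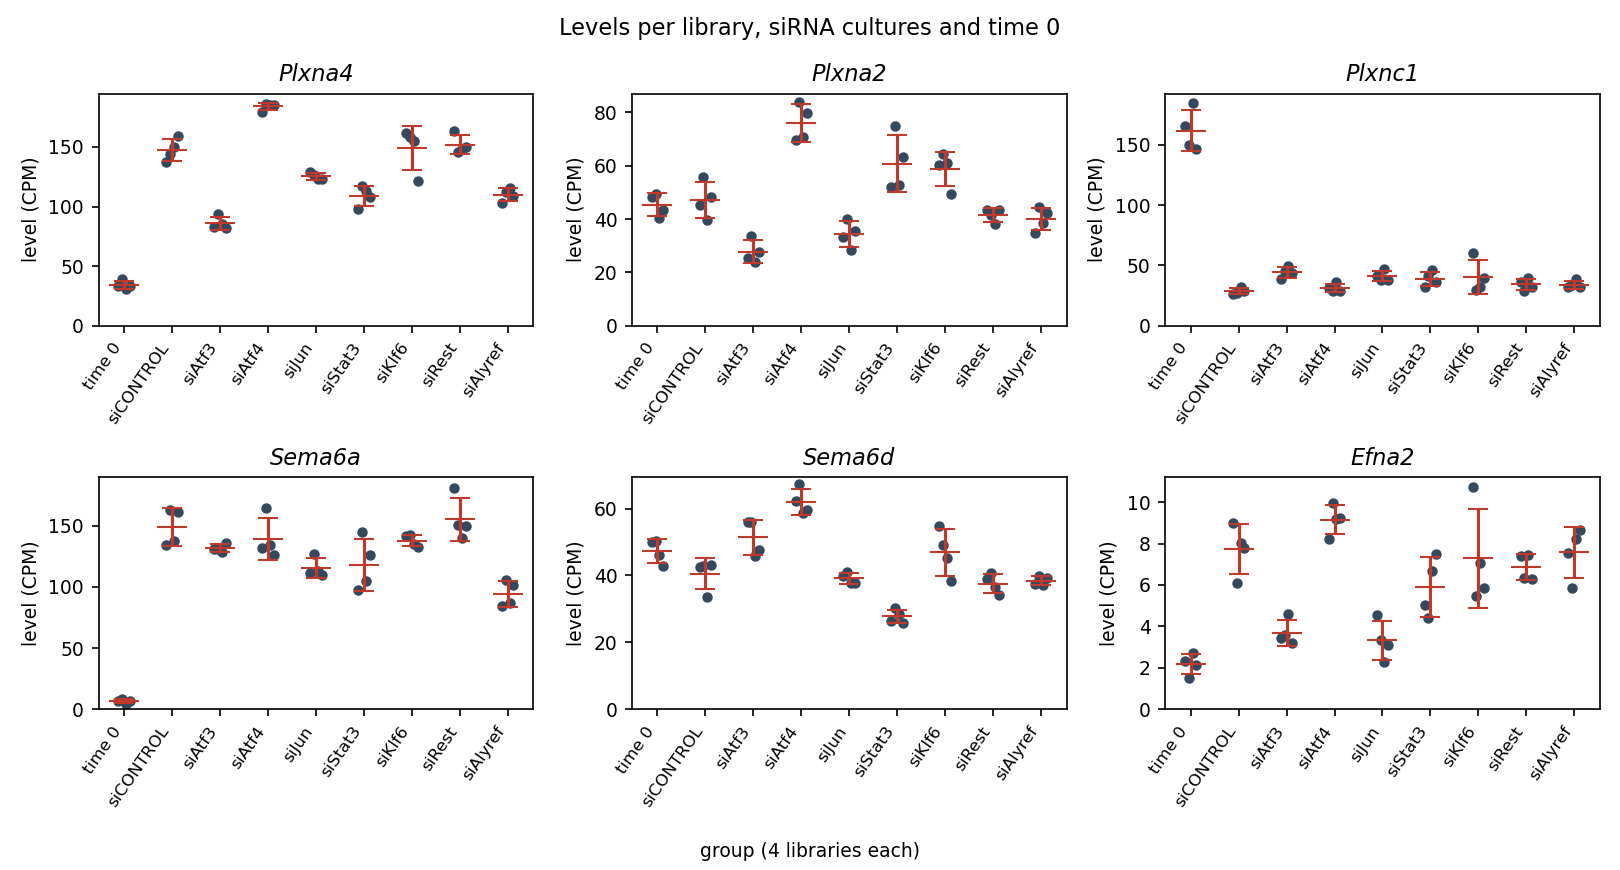
Levels in CPM, on linear axes from 0, of Plxna4, Plxna2, Plxnc1, Sema6a, Sema6d and Efna2 at time 0 and in the 8 siRNA groups. Points are libraries (4 per group) and red bars the mean with its SD. Plxna4 and Plxna2 are highest with siAtf4 and lowest at 42 h with siAtf3, and Sema6d is lowest with siStat3.

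Values of the whole libraries moved beside these results. With siAtf3, 7 of the 10 neuronal markers fell and none rose, and their sum was 10757 to 13372 CPM against 12501 to 15571 CPM. The Schwann cell markers summed to 739 to 876 CPM with siAtf3 and 708 to 848 CPM with siJun, against 999 to 1167 CPM, with 1 of 7 lower in each, Pmp22. The satellite glia marker Glul was 2.17-fold lower with siAtf3 and 2.27-fold lower with siJun. Of the neuronal markers, Tubb3 and Nefl were lower and Prph was higher with siJun, Rbfox3 and Elavl4 were lower with siStat3, and Tubb3 was lower with siAlyref. The 6 macrophage markers summed to 48.3 to 69.2 CPM with siStat3 and 26.4 to 45.2 CPM in siCONTROL, without overlap, though none of the 3 tested was called. The mural marker Rgs5 was lower with siAtf3, siJun and siStat3. With siAtf4, 3 neuronal markers rose and none fell, with a sum of 13953 to 15616 CPM. The part of these in the guidance gene results was not tested. Scaled by library totals alone, a choice added after seeing the data, siAtf3 had 5 members higher and 4 lower instead of 1 and 5, as all genes went from 595 up and 1114 down to 1089 up and 838 down, and the Sema3e call was lost.

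For siStat3 the replicate numbers paired the libraries, and with the number as a block 9 members were called in place of 4, beside 5.05% of all genes. The additions were Sema6a (1.28-fold, adjusted p = 0.00744) and Sema5a (1.48-fold, adjusted p = 0.00582), both lower, and Plxna2 (1.27-fold, adjusted p = 0.00245), Epha5 (1.33-fold, adjusted p = 0.0491) and Plxnc1 (1.34-fold, adjusted p = 0.0491), all higher. With the block, Plxna2 was thus higher and Plxna4 lower with siStat3. By the same cut on correlation the numbers also paired the siJun and siAlyref libraries with their controls, though only 3 of 4 siJun libraries matched their own number best. There the block added Sema4f (1.21-fold higher, adjusted p = 0.0101) and Epha5 (1.31-fold higher, adjusted p = 0.0369) with siJun, and Plxna2 (1.19-fold lower, adjusted p = 0.0353) with siAlyref. Under the block 10.9% of all genes were called with siJun and 5.92% with siAlyref.

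The sequences before the start sites of 4 genes are shown because 3 of them, Plxna2, Efna2 and Sema3e, were lower and Plxnc1 was higher with both siAtf3 and siJun, and Atf3 and Jun encode factors that pair with each other on DNA. Plxna4, also lower with both, has no entry in the table used. They are the 250 bases upstream of the start, 5′ to 3′ on the gene's strand, from RefSeq on GRCm38.p6, with capitals marking GC boxes (GGGCGG or CCGCCC).
Plxna2, chr1:194619579-194619828, plus strand: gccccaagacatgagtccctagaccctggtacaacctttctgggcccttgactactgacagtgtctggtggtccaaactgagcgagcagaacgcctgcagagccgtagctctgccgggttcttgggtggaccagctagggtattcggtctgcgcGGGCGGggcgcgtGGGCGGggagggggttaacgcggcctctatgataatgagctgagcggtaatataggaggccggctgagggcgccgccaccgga
Efna2, chr10:80179232-80179481, plus strand: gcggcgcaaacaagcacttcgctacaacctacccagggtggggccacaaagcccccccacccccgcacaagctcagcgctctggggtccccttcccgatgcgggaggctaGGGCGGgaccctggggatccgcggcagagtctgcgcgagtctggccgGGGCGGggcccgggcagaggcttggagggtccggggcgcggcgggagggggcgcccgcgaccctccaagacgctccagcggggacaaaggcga
Sema3e, chr5:14025026-14025275, plus strand: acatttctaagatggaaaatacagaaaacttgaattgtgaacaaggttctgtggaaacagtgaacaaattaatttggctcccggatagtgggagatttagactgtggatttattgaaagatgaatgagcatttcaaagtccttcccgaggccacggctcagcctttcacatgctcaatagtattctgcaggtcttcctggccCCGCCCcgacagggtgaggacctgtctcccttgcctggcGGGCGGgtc
Plxnc1, chr10:94944846-94945095, minus strand: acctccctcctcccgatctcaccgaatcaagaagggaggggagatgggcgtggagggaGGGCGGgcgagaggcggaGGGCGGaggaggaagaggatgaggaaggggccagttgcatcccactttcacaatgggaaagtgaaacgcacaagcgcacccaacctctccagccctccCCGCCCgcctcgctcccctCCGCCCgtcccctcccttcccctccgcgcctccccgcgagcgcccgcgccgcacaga

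Each of the 4 windows holds at least 2 GC boxes, the binding motif of Sp and Klf factors, and none holds the AP-1 motif (TGACTCA or TGAGTCA), the cyclic AMP response element (TGACGTCA), the C/EBP-ATF composite (TGATGCAA or TTGCATCA) or the STAT motif (TTCNNNGAA). All motifs were searched on both strands, and none contains another. Of the 69 members, 59 had an entry in the RefSeq table, with 75 promoters in all. A GC box was in 70.7% of these and in 32.7% of all 32851 promoters of the table, whose median GC content was 52.4% against 64.4% for the members. The AP-1 motif was in 2.67% of the members' promoters and 4.46% of all, the cyclic AMP response element in 1.33% and 1.55%, the STAT motif in 2.67% and 7.02%, and the composite in none and 0.791%. In the 15 promoters of 12 of the 14 members called in a knockdown (not Plxna4 or Sema6a), 10 had a GC box and none had any of the other motifs. That says only that these letters are not in these windows.

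The last comparisons ask what added Atf4, alone or with its dimer partner Cebpg, did to the guidance genes. With Atf4 mRNA none of the 55 tested members rose and 3 fell, 5.45%, beside 4.84% of all 13857 genes (2.76% up, 2.09% down). With Atf4 and Cebpg mRNA 8 rose and 7 fell, 27.3%, beside 24.6% of all genes (12.4% up, 12.2% down). Neither share was far from that of all genes. The added messages themselves took up counts (a mean of 20102 CPM for Atf4 and 59202 CPM for Cebpg with both), which lowers the CPM of every other gene, while the fold changes carry edgeR's scaling factors. Between the mRNA groups, 3 members were higher and 2 lower with Cebpg added than with Atf4 alone, 9.09%, beside 6.6% of all genes (4.5% up, 2.1% down).

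The genes that fell were led by semaphorins and their plexins. Sema6a was at 161, 152, 152 and 158 CPM with GFP mRNA, at 131, 108, 101 and 102 CPM with Atf4 mRNA (1.45-fold lower, adjusted p = 0.0048) and at 99.4, 68.1, 79.6 and 83.8 CPM with both (1.89-fold lower, log2 -0.92 ± 0.09 SE, adjusted p = 1.56e-05). The 3 groups did not overlap, and with Cebpg added the level was 1.30-fold below that with Atf4 alone (adjusted p = 0.0303). Plxna2 fell from 41.1, 39.9, 39.7 and 51.1 CPM to 30.0, 27.7, 26.1 and 24.5 CPM with Atf4 mRNA (1.63-fold, adjusted p = 0.00307) and to 29.0, 28.1, 23.9 and 28.8 CPM with both (1.54-fold, adjusted p = 0.00122). Sema3e fell from 19.6, 18.6, 18.4 and 27.4 CPM to 13.97, 10.9, 7.80 and 10.5 CPM (2.00-fold, adjusted p = 0.00809) and to 15.3, 10.2, 9.82 and 10.8 CPM (1.85-fold, adjusted p = 0.00405).

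With both mRNAs, Sema4f also fell, from 98.7, 120, 86.2 and 102 CPM to 68.7, 55.8, 63.9 and 61.2 CPM (1.63-fold, log2 -0.70 ± 0.10 SE, adjusted p = 0.000283), and was 1.36-fold below Atf4 mRNA alone (adjusted p = 0.0212). Plxna4 fell from 123, 94.3, 132 and 128 CPM to 92.9, 68.7, 92.4 and 86.7 CPM (1.39-fold, adjusted p = 0.00555). Its lowest GFP library was only just above its highest library with both mRNAs. Sema4d fell 1.27-fold (adjusted p = 0.0253), from 37.0 to 47.4 CPM to 26.0 to 35.4 CPM, and Epha5 1.39-fold (adjusted p = 0.0458), from 10.2 to 13.0 CPM to 6.65 to 9.61 CPM.

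Of the 8 genes that rose with both mRNAs, 5 encode receptors and 3 ligands, where 27 of the 55 tested members encode receptors. Epha3, an EphA receptor, was at 0.449, 1.01, 0.713 and 0.649 CPM with GFP mRNA, at 2.07, 2.54, 1.39 and 1.81 CPM with Atf4 mRNA and at 3.68, 6.35, 6.47 and 4.91 CPM with both, so that the 3 groups did not overlap. The rise with both was 7.72-fold (log2 2.95 ± 0.38 SE, adjusted p = 9.34e-05), on 90.1 expected counts against 14.5 in the 4 libraries of each group, and it was 2.89-fold above Atf4 mRNA alone (adjusted p = 0.0154). With Atf4 mRNA alone Epha3 missed the threshold (log2 1.42 ± 0.40 SE, adjusted p = 0.0613). Since its GFP level was that low, the gene entered the test through the group where it was high.

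Robo1 was at 4.17, 3.88, 4.45 and 4.83 CPM with GFP mRNA, 4.60, 3.58, 8.25 and 4.15 CPM with Atf4 mRNA and 11.2, 11.2, 10.2 and 11.99 CPM with both. The last group was above all other libraries, by 2.63-fold over GFP mRNA (log2 1.39 ± 0.25 SE, adjusted p = 0.00111) and 2.30-fold over Atf4 mRNA (adjusted p = 0.00981). Sema3c had 32.0, 29.9, 46.0 and 35.6 CPM with GFP mRNA, 28.9, 43.9, 39.8 and 40.6 CPM with Atf4 mRNA and 57.0, 67.0, 76.6 and 58.8 CPM with both. It was again the last group alone that stood above the others, by 1.85-fold (adjusted p = 0.00127) and 1.77-fold (adjusted p = 0.00746).

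The other genes that rose with both mRNAs against GFP mRNA included Epha6 (3.53-fold, adjusted p = 0.00802), from 0.678 to 2.03 CPM to 2.30 to 5.56 CPM, and the netrin receptor Unc5c (2.52-fold, adjusted p = 0.038), from 0.983 to 2.97 CPM to 4.32 to 8.52 CPM. Like Epha3, Epha6 and Unc5c were low with GFP mRNA and entered the test through the group where they were high. Efnb2, the ligand of Ephb4, rose 1.73-fold (adjusted p = 0.00423) from 10.9 to 16.8 CPM to 19.7 to 26.9 CPM. Robo4 rose 1.53-fold (adjusted p = 0.0181) from 9.79 to 12.9 CPM to 14.3 to 19.9 CPM, and Sema7a, the ligand of Plxnc1, rose 1.42-fold (adjusted p = 0.00986) from 25.9 to 31.0 CPM to 35.3 to 40.6 CPM. The groups of each of these 5 did not overlap. Beside them, 4 of the 10 endothelial and mural markers rose, Tie1, Cdh5 and Pecam1 among them, with a sum of 370 to 440 CPM against 319 to 407 CPM. The neuronal markers summed to 10234 to 11760 CPM with both mRNAs and 11850 to 13872 CPM with GFP mRNA, without overlap, with Tubb3 1.60-fold lower and Rbfox3 1.285-fold higher. Among the glial markers Glul was 2.335-fold and Pmp22 1.45-fold lower, and Apoe was 1.62-fold and Ncmap 3.18-fold higher. Of the fibroblast markers Lum was 14.04-fold higher. The part of these in the guidance gene results was not tested.

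Several of these calls were near the threshold and were lost when 1 library was left out. In the comparison of both mRNAs with GFP mRNA, Epha5 was lost in 10 of 14 alternatives, leaving out GFP replicate 1, 2 or 4 or Atf4 and Cebpg replicate 1, 2 or 3 among them (adjusted p 0.037 to 0.155), and Unc5c in 8, leaving out GFP replicate 1, 2 or 3 or any Atf4 and Cebpg replicate among them (0.0161 to 0.096). There Sema4d was lost without GFP replicate 4 or Atf4 and Cebpg replicate 2 or 3 (0.0211 to 0.106), and Robo4 without GFP replicate 1 or Atf4 and Cebpg replicate 3 (0.00506 to 0.0538). Between the Atf4 groups, Sema6a was lost without Atf4 and Cebpg replicate 2, 3 or 4 or Atf4 replicate 1 or 2 (0.0068 to 0.106), Sema4f without Atf4 and Cebpg replicate 2, 3 or 4 or Atf4 replicate 2 or 4 (0.00934 to 0.0715) and Epha3 without Atf4 and Cebpg replicate 2 or 3 or Atf4 replicate 3 (0.015 to 0.0676). The ranges in parentheses are of the adjusted p over all 14 alternatives.

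With the replicate number as a block, which paired the libraries of both comparisons with Cebpg, Sema4a was called in addition with both mRNAs against GFP mRNA (2.28-fold higher, adjusted p = 0.0273). Between the Atf4 groups Sema6d (1.33-fold higher, adjusted p = 0.0423) and Plxna4 (1.185-fold lower, adjusted p = 0.0462) were added. Under the block 28.1% of all genes were called with both mRNAs against GFP mRNA, and 8.61% between the Atf4 groups.

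**Figure D5:**
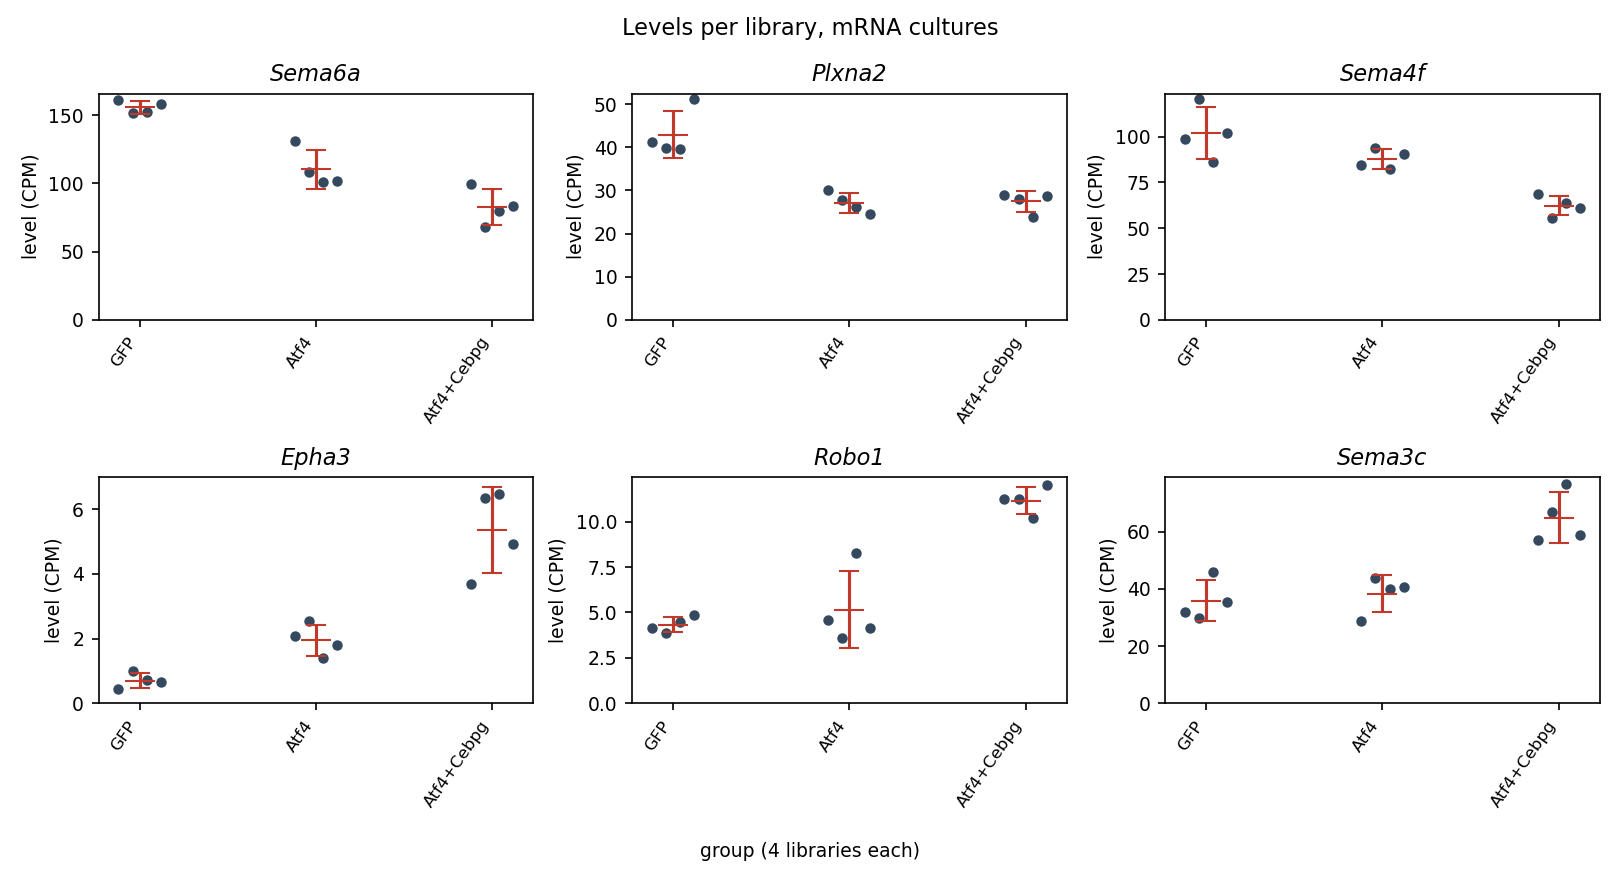
Levels in CPM, on linear axes from 0, of Sema6a, Plxna2, Sema4f, Epha3, Robo1 and Sema3c in the cultures given GFP mRNA, Atf4 mRNA, or Atf4 and Cebpg mRNA. Points are libraries (4 per group) and red bars the mean with its SD. Sema6a falls from group to group without overlap, and Robo1 and Sema3c are highest with both mRNAs.

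Other genes of the pathway were read from a pair of lists. Of the guidance co-receptors, other ligands and adhesion partners, 8 of 35 tested rose and 21 fell in culture, with a median log2 fold change of -0.73 beside 0.01 for all genes, of which 57.9% were called. Flrt3, a membrane protein that binds Unc5 and Robo receptors, rose 12.1-fold (adjusted p = 5.42e-10), while Rtn4rl1, of the Nogo receptor family, fell 3.68-fold and Ngfr, the p75 neurotrophin receptor, fell 2.77-fold. With both mRNAs 6 of 32 rose and 7 fell, beside 24.6% of all genes. Flrt2, a relative of Flrt3, rose 9.61-fold (adjusted p = 2.45e-05) and Ptprd, a receptor phosphatase, rose 4.81-fold (adjusted p = 4.32e-05). Rtn4r, the Nogo receptor, fell 2.01-fold with siAtf3 (adjusted p = 0.000101), where 1 of 34 rose and 3 fell, beside 11.5% of all genes. With siJun 4 of 34 rose and 3 fell, beside 7.78%, Flrt3 by 1.44-fold (adjusted p = 0.000146). Of the same 34, 3 rose and none fell with siAtf4, beside 6.91%, while 2 fell with siStat3, beside 3.03%, and 4 with siAlyref, beside 4.26%, none rising. None was called with siKlf6 or siRest. With Atf4 mRNA 1 of 32 rose and 2 fell, beside 4.84%, and between the Atf4 groups 2 rose and 1 fell, beside 6.6%.

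All 71 intracellular effectors were tested in every comparison. In culture 29 rose and 22 fell, beside 57.9% of all genes called, with a median log2 fold change of 0.28. With siAtf3 4 rose and 15 fell, beside 11.5% of all genes (median -0.09, against 0.01 for all genes), and with siJun 1 rose and 11 fell, beside 7.78% (median -0.10). The semaphorin effector Crmp1, a collapsin response mediator, fell 2.74-fold with siAtf3 (adjusted p = 1.13e-14), and Srgap3, a Slit-Robo GTPase-activating protein, fell 1.63-fold with siJun (adjusted p = 1.85e-07) and 1.42-fold with siStat3 (adjusted p = 8.95e-05), where 1 rose and 3 fell, beside 3.03% of all genes. With siAlyref 1 rose and 7 fell, beside 4.26%, and Trim67, a partner of Dcc, fell 2.30-fold (adjusted p = 5.41e-11). The kinase Limk1, which acts on cofilin, was the one member of the 2 lists that changed with siRest, falling 1.90-fold (adjusted p = 3.38e-06). With siAtf4 7 rose and 3 fell, beside 6.91% of all genes, and with siKlf6 2 fell, beside 1.85%. With Atf4 mRNA 2 fell, beside 4.84%. With both mRNAs 6 rose and 16 fell, beside 24.6%, and between the Atf4 groups 2 rose and 4 fell, beside 6.6%.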

How the data were processed

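Gene expression was measured in 48 libraries of 12 groups of 4. The authors deposited expected counts, which are estimates and often not whole, in separate tables for the mRNA libraries and for all others. The submitters' processing notes name kallisto and the build GRCm39. The version, annotation and scaling were not given in the sources used here. In 149 to 286 of 188 to 352 single-transcript genes per library with a value under 1, the value times the transcript length lay within 4% of a constant of 1899 to 2188 bp, so the values were taken to be scaled by length. Symbols came from GENCODE M21 (GRCm38) and matched 32521 of 34183 rows, or 95.1%. No 2 libraries held identical values.

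Members, lists and named genes were chosen with earlier results of these data known. In each comparison every called member was named where 12 or fewer were called, otherwise the 8 of each direction with the largest fold change, with each family's highest member in siCONTROL. Sema3e, Sema4f, Nrp1, Nrp2, Plxnd1, Robo1 and Slit1 in culture were added after their values were seen. From the other pathway lists up to 3 genes per comparison were taken by adjusted p.

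Expected counts were rounded and tested with edgeR 4.0.16 (R 4.3.3), by TMM scaling, filterByExpr and the quasi-likelihood F test, two-sided, with Benjamini-Hochberg adjustment over all genes tested and a threshold of 0.05. The test gives no standard error, so each SE beside a log2 fold change is its absolute value divided by the square root of the F statistic. There were 3 fits: time 0 with siCONTROL, siCONTROL with the 7 knockdowns, and the 3 mRNA groups. The scripts were tested on simulated data. TMM factors ran from 0.921 to 1.06. Levels are CPM of the deposited values over the library total, and in length-scaled values a count is not a read, so no counting interval is given. The alternatives were DESeq2's size factors, no low-count filter, the replicate number as a block, DESeq2 1.42.0, other sets of groups in the fit, leaving out each library, and, added after seeing the data, scaling by library total alone. Same-numbered libraries, known from the labels' numbers alone, were called paired where every correlation of their deviations was above 0.1. That held for siJun, siStat3, siRest, siAlyref and both comparisons of Atf4 with Cebpg. The cut does not part the comparisons cleanly. Each library matched its own number best in culture and for Atf4 against GFP mRNA, which missed the cut. With siJun, which met it, 3 of 4 did, as with siAtf3 and siAtf4, which missed it. Promoters were read from a RefSeq table.

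The filter left 59 members tested in culture and in the knockdowns and 55 in the mRNA groups. The 10 left out in culture were Efnb3, Efna4, Epha8, Sema3a, Epha1, Robo3, Ephb1, Epha3, Slit3 and Dcc, and 8 members were tested in no comparison.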

Additional observations from a re-analysis of the deposited data

Results flagged for a closer look

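Plxna2, Plxna4 and Sema6d were called with opposite signs in different knockdowns, and the 7 differences between those knockdowns, each tested in the same fit, all passed. On the log2 scale Plxna2 was higher with siAtf4 than with siAtf3 by 1.504 and than with siJun by 1.165. Plxna4 was higher with siAtf4 than with siAtf3 by 1.155, siStat3 by 0.7493, siAlyref by 0.7393 and siJun by 0.5671. Sema6d was higher with siAtf4 than with siStat3 by 1.153.

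In 10 of 104 groups of a named gene, 1 library stood apart from the other 3 by Dixon's test, which chance does in about 1 of 20 groups. For Plxna2, a GFP library at 51.11 CPM lay above the others at 39.66 to 41.15 CPM, and a library with both mRNAs at 23.93 CPM lay below 28.10 to 28.96 CPM. For Sema3e a GFP library at 27.42 CPM lay above 18.36 to 19.58 CPM. With both mRNAs, Epha6 had a library at 2.298 CPM below 5.026 to 5.556 CPM, Sema7a one at 35.27 CPM below 39.80 to 40.63 CPM, and Unc5c one at 8.521 CPM above 4.322 to 4.893 CPM. Plxna4 with siAtf4 had a library at 179.6 CPM below 185.4 to 185.7 CPM, Sema3c with siJun one at 17.99 CPM below 21.77 to 22.32 CPM, and Sema6d in siCONTROL one at 33.62 CPM below 42.51 to 43.07 CPM. At time 0, Sema5b had a library at 4.305 CPM below 6.746 to 7.241 CPM.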

How the results depend on the processing

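Of the 66 calls of members named by the rule, 50 held in every one of their 14 alternatives, 16 were lost in at least 1 and none reversed. The culture calls added after their values were seen are not among the 66. Of the 76 losses, 60 came from leaving out 1 library, 7 from fitting the 2 groups alone, 4 from dropping the low-count filter, 2 each from DESeq2 and from scaling by library totals, and 1 from DESeq2's size factors. With the replicate number as a block the members called were 11 with siAtf3, 9 with siStat3 and 1 with siKlf6 (Plxna2, higher). The fit without it gave 6, 4 and 0. Calls over all genes went up as well, to 14.9%, 5.05% and 2.68% with the block from 11.5%, 3.03% and 1.85% without it. No call of a named member was lost under the block. For siAtf3 and siKlf6 the numbers did not pair the libraries by the cut on correlation, though 3 of 4 siAtf3 libraries matched their own number best. Of the siKlf6 libraries, replicate 5 had no siCONTROL library of its number, and 1 of the other 3 matched its own number best. The cut was also missed with siAtf4 and Atf4 mRNA. There the block added Sema5a (adjusted p = 0.03154) and Plxnd1 (adjusted p = 0.03204), both higher with siAtf4, and Sema5a, lower with Atf4 mRNA (adjusted p = 0.04654). Under the block 9.7% of all genes were called with siAtf4 and 7.42% with Atf4 mRNA. The siAtf3 additions were Nrp1, Sema6d and Robo2 (1.265-fold, adjusted p = 0.03105), all higher, and Sema6a and Sema5a, both lower. Leaving out 1 library gave 6 to 9 called members with siJun, with 6 on leaving out siJun replicate 3, and 2 to 5 between the Atf4 groups, with 2 or 3 on leaving out Atf4 and Cebpg replicate 2, 3 or 4 or Atf4 replicate 2. The other counts of called members stayed within 1.5 times under each alternative run. By library totals alone, the share of all calls that rose was 71.5% for Atf4 against GFP mRNA (382 up and 289 down by TMM) and 51.7% between the Atf4 groups (624 up and 291 down by TMM). Low totals limit what can be said of the members under 1 CPM.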

Other observations

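Some guidance genes fell below the low-count filter in the comparisons given here and so were not tested in them, and they were picked out after their values were seen. Dcc was at 0.0877, 0.0687, 0 and 0.0988 CPM with GFP mRNA, at 0.159, 0.651, 0.282 and 0.442 CPM with Atf4 mRNA and at 2.46, 1.73, 1.42 and 1.73 CPM with Atf4 and Cebpg mRNA, so that the 3 groups did not overlap. Without the filter its difference between both mRNAs and GFP mRNA passed edgeR's test (adjusted p = 0.00174), on 27.9 expected counts in all against 1.26. Sema3a, at 0 to 0.209 CPM with GFP mRNA, was at 0.981, 1.87, 0.589 and 0.671 CPM with both and missed the threshold (adjusted p = 0.109). Epha4 was at 0.78 to 1.27 CPM and 2.10 to 4.44 CPM in these groups and also missed it (adjusted p = 0.0895).

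Efna4, listed at 0 in 3 of the 4 time 0 libraries and at 0.53 CPM in the other, was at 2.37, 1.01, 2.27 and 1.61 CPM in siCONTROL. Without the filter that difference passed (adjusted p = 0.0182), on 35.3 expected counts against 2.81. In all, 27 of the 69 members were called in no comparison, a count that includes the 8 tested in none. The matching share of all genes was not taken. Among the 27 was Efna1, which was the fourth highest member in siCONTROL.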
